A study of Mus musculus with 9 samples.

Results

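The genes described here are 34 interferon-stimulated genes, read in sorted epithelial cells of the mouse kidney and small intestine. They were taken by name, as the non-control probes that carry 1 of the 34 gene symbols or a synonym of it. No threshold on measured values was used, but the list was chosen with earlier results of these data known. Of the 34 genes, 33 had a probe, and these 33 genes were covered by 51 of the 41174 probes and 28476 gene names on the array. Nlrc5, a transactivator of MHC class I genes, had no probe under its name. Some probes carry older names: Irgm2 stands as Iigp2, Tgtp1 as Tgtp, Irf9 as Isgf3g, Irgm1 as Irgm and Gbp6 as Mpa2l. A 52nd probe that carries the name Gbp6 is Gbp7 by its accession and was set aside. The list holds transcription factors, guanylate-binding proteins, immunity-related GTPases, antiviral effectors, oligoadenylate synthetases, nucleic acid sensors and negative regulators.

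The study measured RNA from 3 groups of C57BL/6 mouse cells on 9 single-colour Agilent arrays, with 3 arrays a group. Kidney cells were sorted as Epcam+ CD45- Fluorogold- after mincing and digestion with collagenase, dispase and DNAse, and each of the 3 samples pooled 4 mice. The MHCIIhi cells of the small intestine were sorted as Epcamhi MHChi CD45- Fluorogold- after release with EDTA, and the MHCIIlo cells came from the gate Epcamint MHCint CD45- Fluorogold-, with 3 mice pooled for each sample of both gates. Epcam is an epithelial surface protein, CD45 marks leukocytes, and Fluorogold stains dead cells. No group carried an allele, a transgene or a treatment, so the levels are those of unmanipulated mice, whose age the labels do not state. Each sample is a pool, so spread between single mice is not seen. In such bulk samples, fewer cells of a type and less RNA per cell cannot be told apart.

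Interferons are secreted proteins that bind receptors on the cell surface and activate Janus kinases, which phosphorylate STAT proteins. Type I interferons, and type III interferons, which act mainly on epithelia, drive a complex with Stat2 and Irf9 that binds the interferon-stimulated response element (ISRE), while interferon gamma acts mainly through the gamma-activated site (GAS). The genes switched on in this way block viral replication, coat and disrupt vacuoles that hold parasites or bacteria, and raise antigen presentation, and intestinal epithelium is known to express part of them at a resting level.

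RefSeq promoter entries on GRCm38.p6, each running from 250 bases before to 50 bases after the start site, were found for 24 of the 34 genes. The letters GAAA, any 2 bases and GAAA again, searched on both strands as an ISRE, stood in the promoters of 17 of the 24 genes (70.8%) and in 1079 of all 27025 genes with an entry (3.99%). The letters TTCNNNGAA, searched as a GAS and identical on both strands, stood in 8 of the 24 (33.3%) and in 2582 of 27025 (9.55%). A match to these letters is a description and not a bound site. The windows of 50 bases printed here are shown because their genes take opposite places in the comparisons that follow. They are written 5′ to 3′ on the gene's strand, with the motif letters in capitals, and TTTC, any 2 bases and TTTC is the ISRE read from the opposite strand. Ifit3, Rsad2 and Gbp3, which were higher in kidney cells, hold it at chr19:34583353-34583402 (plus strand), chr12:26456543-26456592 (minus strand) and chr3:142559979-142560028 (plus strand).
Ifit3: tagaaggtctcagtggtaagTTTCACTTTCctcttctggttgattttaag
Rsad2: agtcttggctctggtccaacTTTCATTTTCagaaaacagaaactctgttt
Gbp3: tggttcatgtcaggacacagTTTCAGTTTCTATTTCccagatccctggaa
Isg15 and Oas3, which were lower in kidney cells, held the motif at chr4:156200867-156200916 (minus strand) and chr5:120777705-120777754 (minus strand).
Isg15: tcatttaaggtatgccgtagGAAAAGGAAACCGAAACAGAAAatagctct
Oas3: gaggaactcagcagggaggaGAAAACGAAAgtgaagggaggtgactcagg
In Isg15 there were 3 overlapping matches, at positions -78, -72 and -66 from the start site, and in Gbp3 there were 2. Ifit3 held 2 separate matches, at -156 and -122, and the second lies beyond the printed window.

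Of the immunity-related GTPases, 3 are shown because a GAS and an ISRE stood side by side in each, at chr11:58199502-58199551 (Igtp, plus strand), chr11:58214893-58214942 (Irgm2, plus strand) and chr11:48992294-48992343 (Tgtp1, minus strand).
Igtp: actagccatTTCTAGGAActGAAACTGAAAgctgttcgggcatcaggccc
Irgm2: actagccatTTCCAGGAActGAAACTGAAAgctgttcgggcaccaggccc
Tgtp1: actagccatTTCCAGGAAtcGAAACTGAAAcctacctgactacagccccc
The gap between the motifs was 2 bases in all 3 promoters. Igtp and Irgm2 were not called in any comparison, while Tgtp1 was. The ISRE letters stood in 4 of the 5 genes with an entry that were higher in kidney than in MHCIIhi cells and in 8 of the 13 that were lower. Against MHCIIlo cells the counts were 4 of 5 and 8 of 14, so genes of both directions held them. The genes without these letters in the window were Irf1, Irf7, Irf8, Irf9, Ifi47, Ifit2 and Oasl2, and of these Irf1, Irf8 and Ifit2 held the GAS letters.

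**Figure D1:**
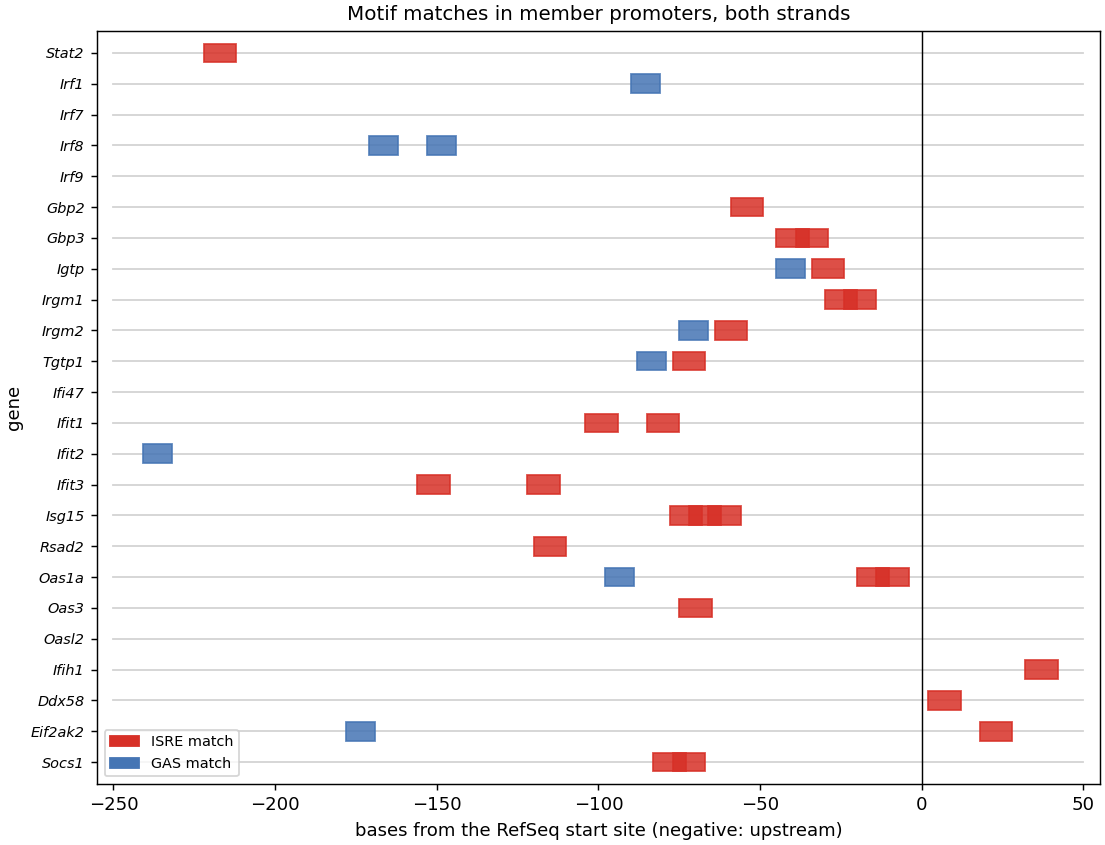
Positions of the ISRE letters (GAAA, any 2 bases, GAAA) and the GAS letters (TTCNNNGAA) in the promoters of the interferon-stimulated genes with a RefSeq entry, as distance in bases from the start site, 1 row a gene. Most ISRE matches lie before the start site, and Igtp, Irgm2 and Tgtp1 each have a GAS directly before an ISRE.

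Levels are given as log2 of the processed signal minus the 75th percentile of that array, so 0 is the 75th percentile and a step of 1 is a factor of 2 in signal. That percentile was 599 to 770 intensity units on kidney arrays, 213 to 371 on MHCIIhi arrays and 100.6 to 185 on MHCIIlo arrays, and the share of probes well above background was 70.8% to 72.9%, 60.8% to 64.6% and 50.7% to 57.1% in the same order. The kidney arrays lay on 1 slide of their own, MHCIIhi 1 and 2 on another, and MHCIIhi 3 with the 3 MHCIIlo arrays on the third. Kidney, its slide and its enzyme digestion therefore cannot be told apart. Epithelial markers were above background in all groups (5 of 5), kidney epithelial markers on all kidney arrays (6 of 6) and intestinal epithelial markers on all intestinal arrays (5 of 5), while Cdx1, Cdx2 and Cdh17 were not above background in kidney cells. Markers of other cells moved between the groups too. All 4 endothelial markers were above background on kidney arrays, with a summed log2 level of 4.31 to 5.50, and none was on an intestinal array (-5.22 to -4.06 in MHCIIhi and -4.42 to -3.47 in MHCIIlo cells). Macrophage and dendritic cell markers did not move together. Their summed level was 1.14 to 2.48 in kidney, 6.62 to 7.43 in MHCIIhi and 3.97 to 5.68 in MHCIIlo cells and followed Lyz2, whose group means were 0.12, 7.07 and 4.70. Csf1r of the same list ran the other way, at 0.69, -4.72 and -3.14. Of the 6 markers tested, 1 was higher and 5 lower in kidney than in MHCIIhi cells, and 1 was higher and 3 lower in MHCIIhi than in MHCIIlo cells. For B and plasma cell markers it was -1.31 to -0.78, 0.13 to 1.12 and 4.44 to 5.18, and for T cell and intraepithelial lymphocyte markers -0.11 to 0.71, 0.60 to 1.67 and 2.45 to 3.36, in the same order of groups. Plasmacytoid dendritic cell markers summed to 3.09 to 3.77, 1.70 to 2.16 and 1.93 to 2.17, with Siglech above background on none of the 9 arrays. Their part in the differences described here was not tested.

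All 33 genes with a probe passed the filter on dim probes and were tested among 19972 genes, and 28 were above background on all 9 arrays. The brightest probes of Gbp4 and Ifit2 passed the filter through the kidney arrays alone, so a difference there was built in, and those of Mx1 and Oas3 were above background on all 6 intestinal arrays but not on all kidney arrays. A gene was called where limma's adjusted p was below 0.05 and the log2 difference was at least 1 in size. In the order of the group means, 21 of the 33 genes were highest in MHCIIlo, next in MHCIIhi and lowest in kidney cells (63.6%, against 29.9% of all genes tested). In 9 genes the kidney mean was the highest. Gbp2, Gbp3, Gbp4, Ifit3 and Rsad2 had MHCIIlo next (15.2%, against 20.7% of all genes tested). Gbp6, Iigp1, Tgtp1 and Ifit2 had MHCIIhi next (12.1%, against 20.2%). These orders are of means, and neighbouring means often overlapped between arrays.

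**Figure D2:**
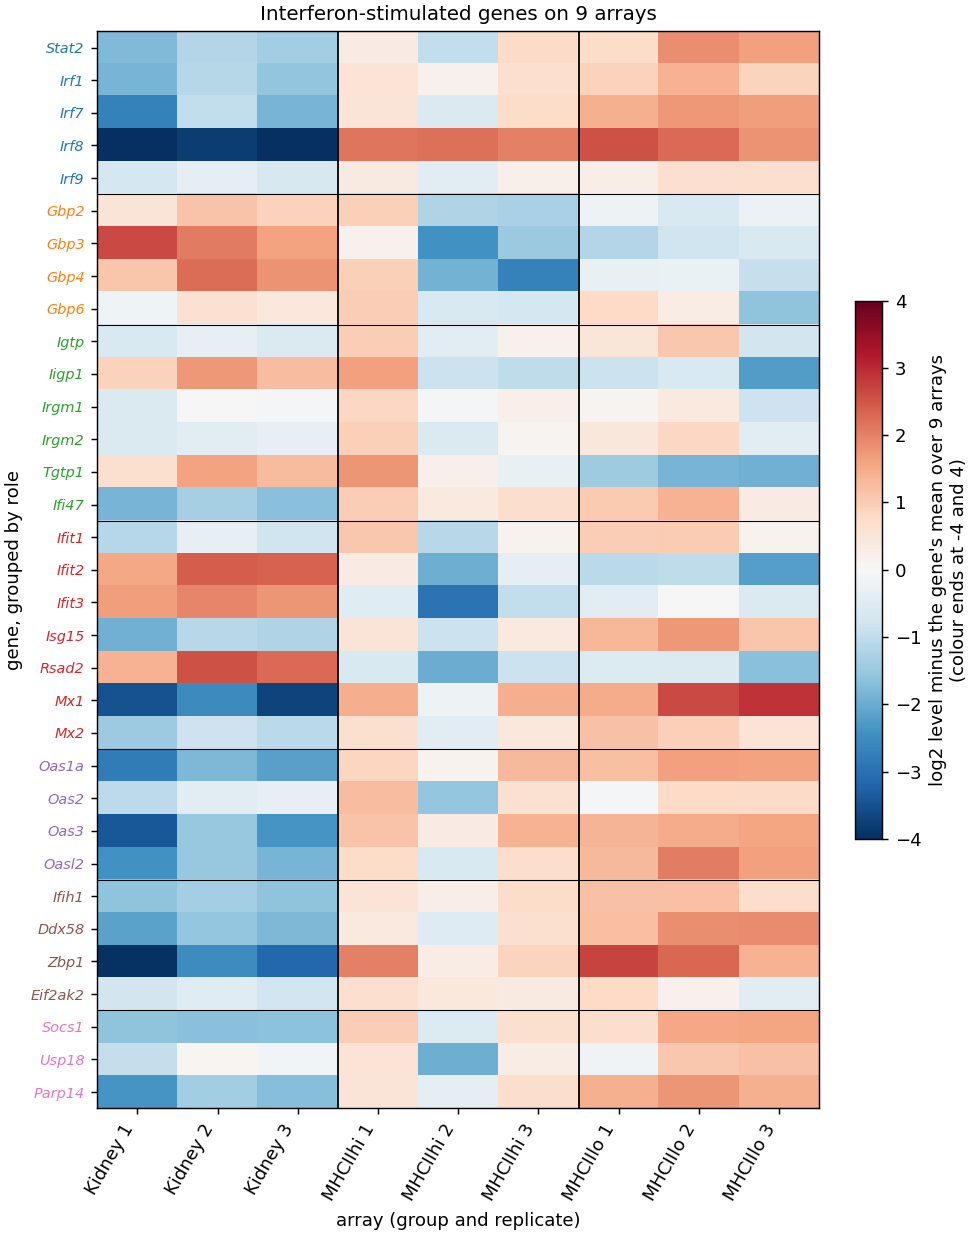
Log2 level of 33 interferon-stimulated genes on each of 9 arrays, relative to the 75th percentile of the array and centred on the gene's mean, with kidney arrays left, then MHCIIhi and MHCIIlo arrays, and genes grouped by role. Irf8, Zbp1, Oas1a and Mx1 are low on all kidney arrays, and Gbp3, Ifit3 and Rsad2 are high on them.

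Kidney cells had less RNA of most interferon-stimulated genes than either intestinal population. Gbp3, Gbp4, Ifit2, Ifit3 and Rsad2 were called higher in kidney cells than in either population. Gbp2 was called higher against MHCIIhi cells alone, and Tgtp1 and Iigp1 against MHCIIlo cells alone. Against MHCIIhi cells, 17 of 33 genes were called lower and 6 higher, where 22.8% and 25.6% of all genes were called, 48.4% in all (limma). Against MHCIIlo cells, 18 were called lower and 7 higher, against 27.9% and 29.8% of all genes, 57.6% in all. As shares, 51.5% and 54.5% of the genes were lower, above the background, while 18.2% and 21.2% were higher, somewhat below it. Without Gbp4 and Ifit2, which passed the filter through the kidney arrays alone, 4 and 5 of 31 genes were higher (12.9% and 16.1%). All kidney arrays lay below all MHCIIhi arrays for 17 genes and above them for 5, where 36.1% of all genes did each. Against MHCIIlo arrays the counts were 20 and 8, with 38.5% and 39.7% of all genes. The median difference of the 33 genes was -1.15 against MHCIIhi and -1.47 against MHCIIlo cells, with -0.02 and 0.04 over all genes. Both comparisons use the same kidney arrays, so their values are given side by side and are not independent.

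**Figure D3:**
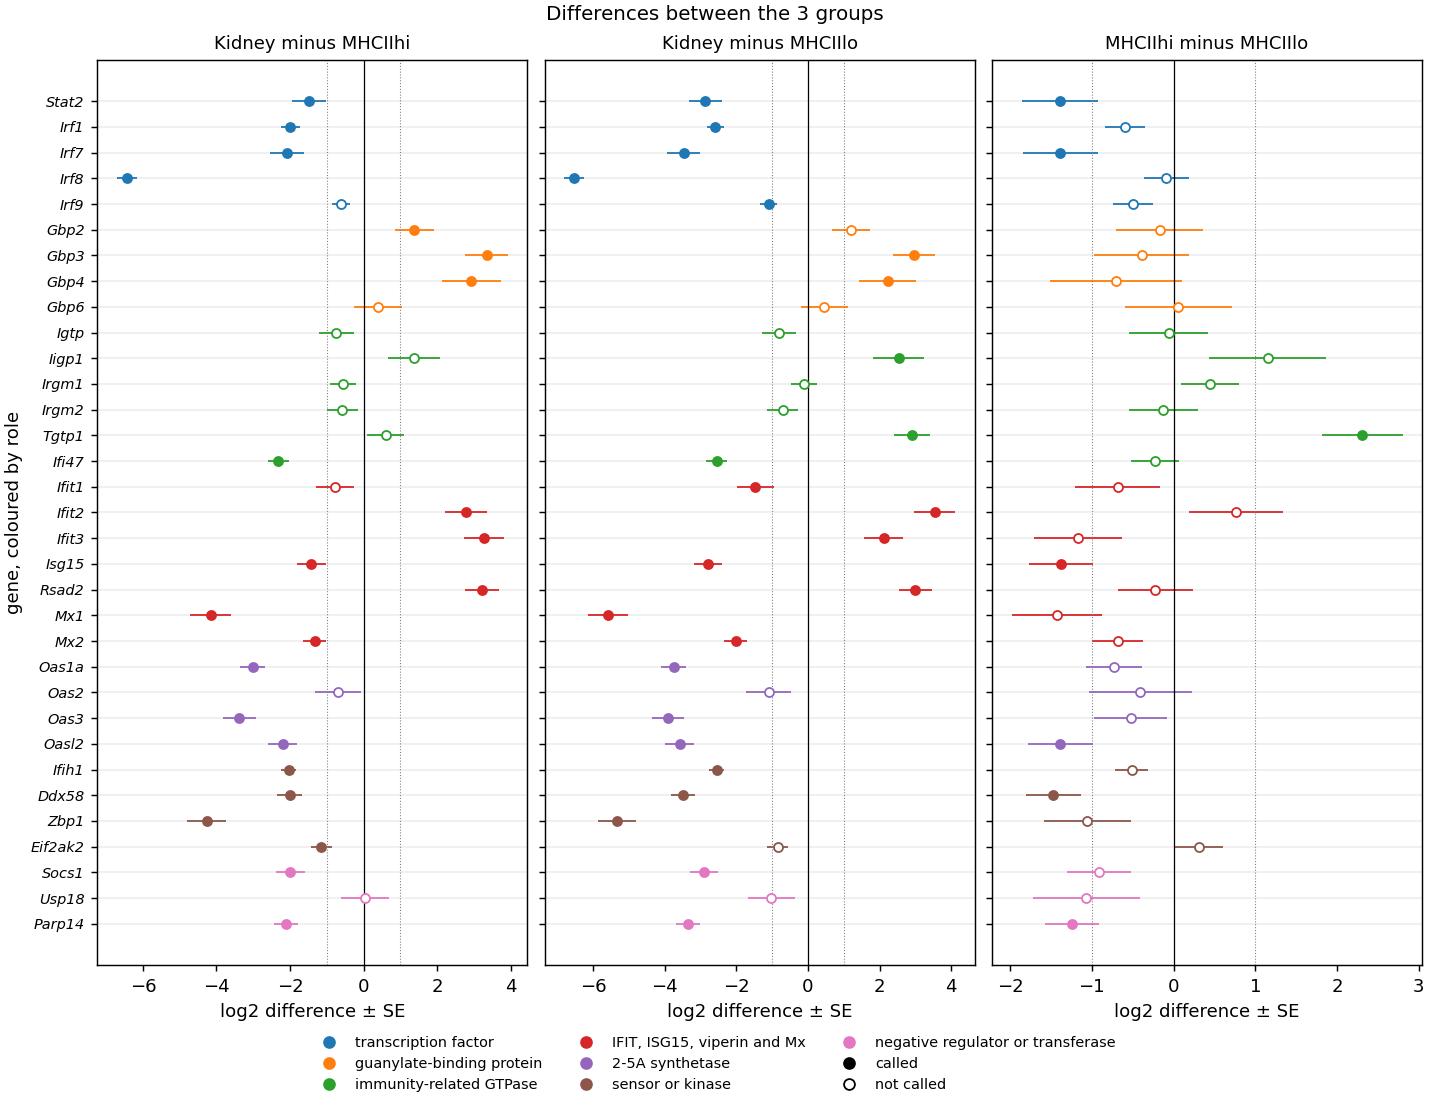
Log2 difference (with standard error) of each interferon-stimulated gene for kidney minus MHCIIhi, kidney minus MHCIIlo and MHCIIhi minus MHCIIlo, 1 row a gene; filled points passed an adjusted p below 0.05 and a difference of at least 1. Irf8, at -6.44 and -6.53, is farthest to the left in both kidney panels, and Gbp3, Ifit2, Ifit3 and Rsad2 lie to the right.

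Among the transcription factors, 4 of 5 were lower in kidney than in MHCIIhi cells and 5 of 5 lower than in MHCIIlo cells, with median differences of -1.99 and -2.86. Of all genes, 22.8% and 27.9% were lower in these comparisons. Irf8, a factor best known for the development of myeloid and B cells, had levels of -2.63, -1.73 and -2.38 in kidney cells, against 4.21, 4.28 and 4.07 in MHCIIhi and 4.63, 4.34 and 3.86 in MHCIIlo cells. The kidney arrays lay far below all 6 intestinal arrays, which overlapped with each other. The difference was -6.44 ± 0.28 against MHCIIhi (SE; 86.5-fold lower; limma adjusted p = 2.04e-07) and -6.53 ± 0.28 against MHCIIlo (92.1-fold lower; adjusted p = 1.67e-07). A further Irf8 probe gave -6.17 against MHCIIhi cells. Irf8 is also a gene of myeloid cells. Of 6 macrophage and dendritic cell markers tested, 5, Lyz2 among them, were lower in kidney than in MHCIIhi cells, and Csf1r was higher. Against MHCIIlo cells, 4 were lower and Csf1r was higher. Of 7 B and plasma cell markers, 6 were lower in kidney in each comparison and none was higher. The part of these markers in the Irf8 difference was not tested. Irf1, an activator induced strongly by interferon gamma, had levels of 3.10, 3.80 and 3.38 in kidney, 5.51, 5.12 and 5.63 in MHCIIhi and 5.87, 6.34 and 5.83 in MHCIIlo cells. The 3 groups did not overlap. Its differences were -1.99 ± 0.25 (adjusted p = 0.000116, limma) and -2.58 ± 0.25 (adjusted p = 1.82e-05).

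Irf7, the factor that amplifies type I interferon production, had levels of -1.25, 0.48 and -0.41 in kidney, 1.97, 0.88 and 2.19 in MHCIIhi and 2.88, 3.19 and 3.14 in MHCIIlo cells. Kidney arrays were lowest and MHCIIlo arrays highest, without overlap. The limma differences for kidney were -2.08 ± 0.46 against MHCIIhi (adjusted p = 0.00367) and -3.46 ± 0.46 against MHCIIlo (adjusted p = 0.000143). Stat2, the STAT protein particular to the type I and type III response, was at 0.26, 0.86 and 0.63 in kidney, 2.35, 1.04 and 2.79 in MHCIIhi and 2.77, 3.89 and 3.68 in MHCIIlo cells. The difference was -1.48 ± 0.46 (adjusted p = 0.0202) and -2.86 ± 0.46 (adjusted p = 0.000463) by limma, and the kidney arrays did not overlap with either group. Against MHCIIhi cells Stat2 was not called without MHCIIhi 1 (-1.33), MHCIIhi 3 (-1.11) or Kidney 1 (-1.31). Its partner Irf9 was lower in kidney than in MHCIIlo cells alone, at -1.10 ± 0.25 (limma adjusted p = 0.00314), and against MHCIIhi cells it was at -0.60 ± 0.25 (adjusted p = 0.0566). The difference between those differences is that of MHCIIhi and MHCIIlo cells, which was not called for Irf9 (-0.49, limma adjusted p = 0.12). The Irf9 difference from MHCIIlo cells was under 1 in size with quantile normalization (-0.93), median scaling (-0.90) and normexp (-0.80).

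The guanylate-binding proteins, which assemble on vacuoles and on bacteria in the cytosol, gave these counts: 3 of 4 were higher in kidney than in MHCIIhi cells, 2 of 4 higher than in MHCIIlo cells, and none lower in either, where 25.6% and 29.8% of all genes were higher. Leaving aside Gbp4, which was tested through the kidney arrays alone, the counts were 2 of 3 and 1 of 3. The 4 endothelial markers were called higher in kidney cells in both comparisons as well, and whether the genes moved with them was not tested. Gbp3 had levels of 1.81, 1.26 and 0.78 in kidney cells, against -0.64, -3.24 and -2.31 in MHCIIhi and -1.98, -1.62 and -1.43 in MHCIIlo cells. All kidney arrays were above all intestinal arrays. The difference was 3.35 ± 0.58 (10.2-fold; limma adjusted p = 0.000897) and 2.96 ± 0.58 (7.77-fold; adjusted p = 0.00148). Gbp4 was at -2.79, -1.67 and -2.11 in kidney, -2.97, -5.79 and -6.61 in MHCIIhi and -4.22, -4.18 and -4.85 in MHCIIlo cells. It was above background on 3 kidney arrays, on 1 MHCIIhi array and on no MHCIIlo array. Its limma difference from MHCIIhi was 2.93 ± 0.80 (adjusted p = 0.0109), and against MHCIIlo it was at least 3.23-fold higher (adjusted p = 0.0318). Such a bound sets the mean of the brighter group against the lowest signal well above background on each array of the dimmer one. With normexp background correction Gbp4 was not called against MHCIIhi (0.51, adjusted p = 0.0762), and its sign turned against MHCIIlo (-0.34, adjusted p = 0.212). The call against MHCIIlo was also lost when any single MHCIIlo array, Kidney 2 or Kidney 3 was left out (limma adjusted p = 0.0569 to 0.0934).

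Gbp2 had levels of 0.34, 0.95 and 0.73 in kidney, 0.76, -1.38 and -1.48 in MHCIIhi and -0.39, -0.79 and -0.43 in MHCIIlo cells. MHCIIhi 1 lay within the kidney range, and the other MHCIIhi arrays lay below it. The limma difference of 1.37 ± 0.53 passed against MHCIIhi (adjusted p = 0.0482), and was 1.21 ± 0.53 against MHCIIlo (adjusted p = 0.0681). The call against MHCIIhi held in 9 alternative settings and was lost in 15, among them the omission of any single array except MHCIIhi 1 (limma adjusted p up to 0.15) and the slide as a random block (0.101). Gbp6 was at -2.36, -1.58 and -1.78 in kidney, -1.21, -2.80 and -2.89 in MHCIIhi and -1.39, -1.88 and -3.81 in MHCIIlo cells. The groups overlapped, and the differences for kidney were 0.39 ± 0.65 and 0.45 ± 0.65.

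The immunity-related GTPases, which in mice act on the vacuoles of Toxoplasma and similar parasites, were mixed: of 6 genes, 1 was lower than in MHCIIhi cells and none higher, and 1 was lower and 2 higher than in MHCIIlo cells. Of all genes, 22.8% were lower and 25.6% higher than in MHCIIhi cells, and 27.9% and 29.8% than in MHCIIlo cells. Ifi47 was the gene that was lower, with levels of -0.27, 0.25 and -0.10 in kidney, 2.58, 1.97 and 2.28 in MHCIIhi and 2.62, 2.98 and 1.91 in MHCIIlo cells. The kidney arrays stood apart from intestinal arrays that overlapped, and the differences were -2.32 ± 0.30 (limma adjusted p = 0.000142) and -2.54 ± 0.30 (adjusted p = 6.23e-05). Tgtp1 was at 0.60, 1.60 and 1.24 in kidney, 1.76, 0.19 and -0.30 in MHCIIhi and -1.44, -1.89 and -1.95 in MHCIIlo cells. Kidney and MHCIIhi arrays overlapped and both lay above the MHCIIlo arrays, with 2.91 ± 0.49 for kidney minus MHCIIlo (limma adjusted p = 0.000648) and 0.60 ± 0.49 for kidney minus MHCIIhi (adjusted p = 0.317).

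Iigp1, which loads onto parasite vacuoles, was at 0.87, 1.69 and 1.20 in kidney, 1.61, -0.90 and -1.08 in MHCIIhi and -0.89, -0.65 and -2.28 in MHCIIlo cells. As with Gbp2, MHCIIhi 1 reached the kidney range and the other MHCIIhi arrays did not. The difference was 2.53 ± 0.71 against MHCIIlo (limma adjusted p = 0.0105) and 1.38 ± 0.71 against MHCIIhi (adjusted p = 0.12). With the slide as a random block it was 2.32 against MHCIIlo (limma adjusted p = 0.0566). Igtp, Irgm1 and Irgm2 gave kidney differences of -0.74, -0.55 and -0.58 against MHCIIhi and -0.80, -0.10 and -0.71 against MHCIIlo cells. None was called. Tgtp1 and Iigp1 have near-identical copies in the mouse genome, so their probes may read more than 1 gene.

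The antiviral effectors outside the synthetases split within the group. Of 7 genes, 3 were higher and 3 lower in kidney than in MHCIIhi cells, and 3 were higher and 4 lower than in MHCIIlo cells. The genes that were higher were Ifit2, Ifit3 and Rsad2 in both comparisons, and without Ifit2, tested through the kidney arrays alone, 2 of 6 were higher in each. That is 33.3%, near the 25.6% and 29.8% of all genes that were higher, where 22.8% and 27.9% were lower. Rsad2, which encodes viperin, an enzyme that makes a chain-terminating nucleotide, had levels of 1.79, 2.94 and 2.66 in kidney, -0.24, -1.58 and -0.46 in MHCIIhi and -0.15, -0.19 and -1.27 in MHCIIlo cells. All kidney arrays were higher than all intestinal ones. The differences were 3.22 ± 0.46 (9.32-fold; limma adjusted p = 0.00029) and 3.00 ± 0.46 (7.98-fold; adjusted p = 0.000359). The other Rsad2 probes gave 3.02 and 0.53 against MHCIIhi and 2.47 and -0.16 against MHCIIlo cells, so 1 of the 3 probes did not show the difference.

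Ifit3 had levels of 2.13, 2.41 and 2.19 in kidney, -0.05, -2.52 and -0.55 in MHCIIhi and 0.03, 0.46 and -0.12 in MHCIIlo cells. The kidney arrays lay within 0.3 of each other and above all intestinal arrays, at 3.29 ± 0.54 (9.75-fold; limma adjusted p = 0.000674) and 2.12 ± 0.54 (4.34-fold; adjusted p = 0.00652). Ifit2 was at -1.34, -0.46 and -0.50 in kidney, -2.54, -4.81 and -3.28 in MHCIIhi and -3.96, -3.88 and -5.08 in MHCIIlo cells. It was above background on 3 kidney, 2 MHCIIhi and 1 MHCIIlo arrays, and the differences were 2.78 ± 0.57 (limma adjusted p = 0.00245) and 3.54 ± 0.57 (adjusted p = 0.000476). With normexp the difference from MHCIIlo was 0.83. A second Ifit2 probe, above background on 3 MHCIIhi and 2 MHCIIlo arrays, gave 1.51 and 2.47. Ifit1, which recognises viral RNA caps, ran the other way, at -1.79, -0.96 and -1.44 in kidney, 0.44, -1.77 and -0.50 in MHCIIhi and 0.35, 0.36 and -0.49 in MHCIIlo cells. MHCIIhi 2 lay within the kidney range, the difference from MHCIIlo was -1.47 ± 0.52 (limma adjusted p = 0.0288), and that from MHCIIhi was -0.79 ± 0.52 (adjusted p = 0.211). The Ifit1 call was lost without MHCIIlo 1, MHCIIlo 2, Kidney 1 or Kidney 3 (limma adjusted p = 0.0694 to 0.0923). Ifit3 has a near-identical copy, Ifit3b, which its probe may also read.

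Isg15, a ubiquitin-like modifier, was at -0.45, 0.39 and 0.28 in kidney, 2.01, 0.62 and 1.87 in MHCIIhi and 2.80, 3.22 and 2.59 in MHCIIlo cells. The 3 groups did not overlap, although MHCIIhi 2 came close to the kidney arrays. Its differences were -1.42 ± 0.39 (limma adjusted p = 0.0115) and -2.80 ± 0.39 (adjusted p = 0.000201). The first was not called when MHCIIhi 3 and MHCIIlo 1 were left out together, an alternative chosen after seeing the data (-1.24, limma adjusted p = 0.0538). The array's annotation places the Isg15 probe on chromosome 17, while RefSeq has the gene on chromosome 4, so what else the probe reads is not known. Mx1, a dynamin-like GTPase against influenza virus, was not well above background on any kidney array on its brightest probe, with measured levels of -7.30, -6.38 and -7.54, against -2.36, -4.03 and -2.36 in MHCIIhi and -2.35, -1.19 and -0.93 in MHCIIlo cells. It was at least 8.35-fold lower than in MHCIIhi cells (limma adjusted p = 0.000178) and at least 22.5-fold lower than in MHCIIlo cells (adjusted p = 2.24e-05) on that probe. The other Mx1 probe, above background on 1 kidney array, gave log2 differences of -4.14 and -5.57. Mx2 was lower too, with log2 differences of -1.33 ± 0.31 (limma adjusted p = 0.00488) and -2.02 ± 0.31 (adjusted p = 0.000359). RefSeq lists Mx1 and Mx2 as transcribed pseudogenes in this strain, so these are levels of RNA alone.

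The oligoadenylate synthetases, which activate RNase L when they meet double-stranded RNA, were lower in kidney in 3 of 4 genes in both comparisons, with medians of -2.61 and -3.67. Of all genes, 22.8% were lower than in MHCIIhi cells and 27.9% lower than in MHCIIlo cells. Oas1a had levels of -1.15, -0.15 and -0.51 in kidney, 2.51, 1.80 and 2.94 in MHCIIhi and 2.86, 3.30 and 3.28 in MHCIIlo cells. The kidney arrays were below all intestinal arrays, with differences of -3.02 ± 0.34 (8.11-fold lower; limma adjusted p = 6.7e-05) and -3.75 ± 0.34 (13.4-fold lower; adjusted p = 1.42e-05). Oasl2, a synthetase-like protein with ubiquitin-like domains, was at 0.03, 0.93 and 0.59 in kidney, 3.17, 1.83 and 3.14 in MHCIIhi and 3.72, 4.48 and 4.10 in MHCIIlo cells, again with no overlap. Its differences were -2.20 ± 0.40 (limma adjusted p = 0.00122) and -3.58 ± 0.40 (adjusted p = 4.83e-05).

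Oas3 was at -6.25, -4.37 and -5.22 in kidney, where 2 of 3 arrays were above background, at -1.73, -2.52 and -1.46 in MHCIIhi and at -1.49, -1.36 and -1.29 in MHCIIlo cells. The differences were -3.38 ± 0.45 (limma adjusted p = 0.000178) and -3.90 ± 0.45 (adjusted p = 5.71e-05). The other Oas3 probe gave -6.12 and -6.93, but it was above background on no kidney array, so these sizes rest on values at background. Oas2 alone of the synthetases was not called, at -2.87, -2.25 and -2.16 in kidney, -0.61, -3.39 and -1.21 in MHCIIhi and -1.89, -1.03 and -1.07 in MHCIIlo cells. The kidney arrays lay below the MHCIIlo arrays, and MHCIIhi 2 lay below all of them.

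**Figure D4:**
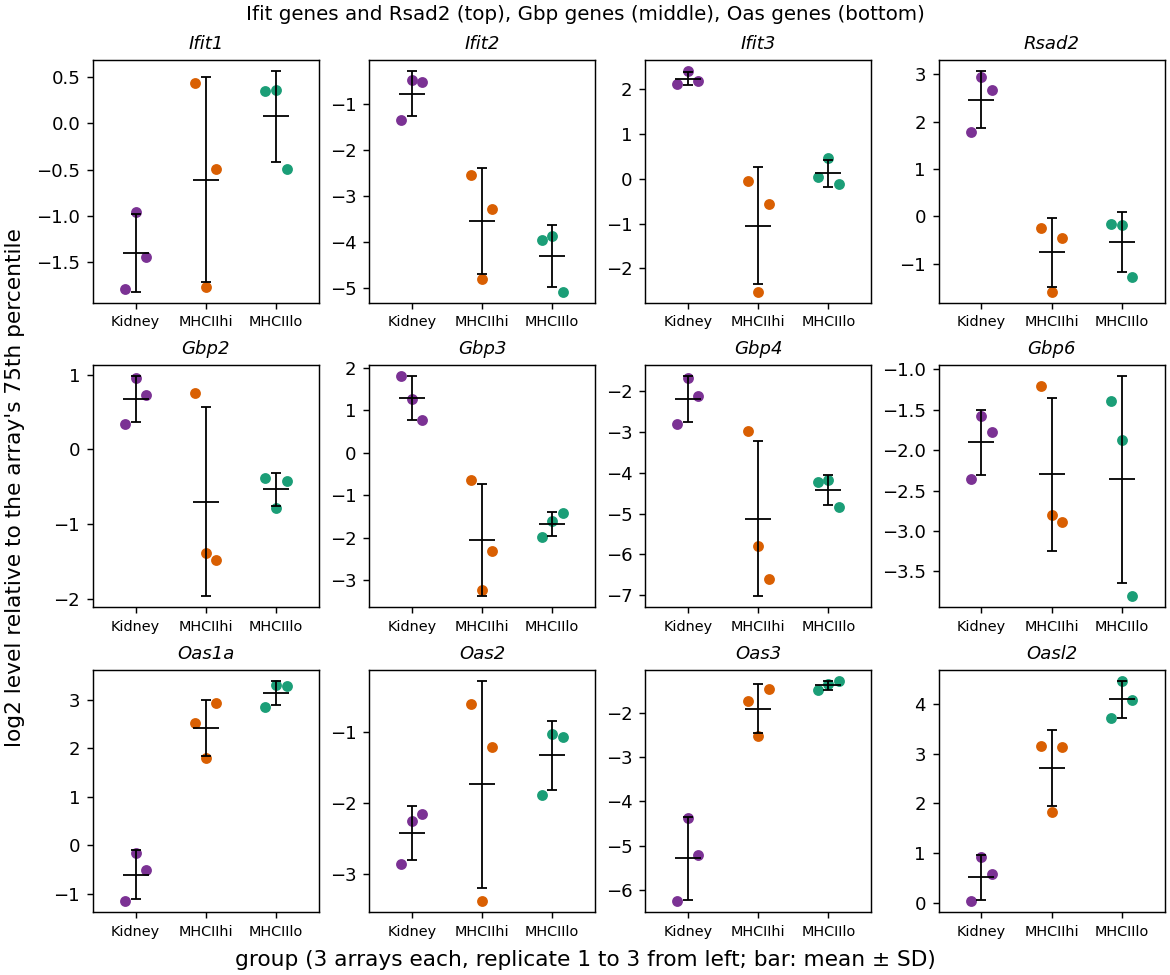
Log2 level relative to the 75th percentile of the array for Ifit genes and Rsad2 (top), Gbp genes (middle) and Oas genes (bottom), with kidney left, then MHCIIhi and MHCIIlo; points are arrays and bars are means ± SD (n = 3). Kidney points lie highest for Gbp3, Ifit2 and Ifit3 and lowest for Oas1a, Oas3 and Oasl2.

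Of the sensors of viral nucleic acid and the kinase Eif2ak2, 4 of 4 were lower in kidney than in MHCIIhi cells and 3 of 4 lower than in MHCIIlo cells. The shares of all genes that were lower were 22.8% and 27.9%. Zbp1, a sensor that can start necroptosis, had levels of -2.72, -1.30 and -1.91 in kidney, 3.25, 1.50 and 2.12 in MHCIIhi and 3.91, 3.51 and 2.61 in MHCIIlo cells. The gap between kidney and intestinal arrays was wider than the range within any group, at -4.27 ± 0.53 (19.2-fold lower; limma adjusted p = 0.000123) and -5.32 ± 0.53 (40.0-fold lower; adjusted p = 2.45e-05). Ifih1, the sensor MDA5, was at -0.45, -0.17 and -0.44 in kidney, 1.72, 1.43 and 1.90 in MHCIIhi and 2.34, 2.36 and 1.89 in MHCIIlo cells. Its differences were -2.04 ± 0.20 (limma adjusted p = 3.03e-05) and -2.55 ± 0.20 (adjusted p = 6.25e-06).

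Ddx58, the sensor RIG-I, was at -0.64, -0.04 and -0.32 in kidney, 1.89, 0.97 and 2.14 in MHCIIhi and 2.69, 3.34 and 3.39 in MHCIIlo cells on its brightest probe. The groups did not overlap, and the limma differences were -2.01 ± 0.34 (adjusted p = 0.000746) and -3.48 ± 0.34 (adjusted p = 1.99e-05). The 4 Ddx58 probes disagreed against MHCIIhi cells, at -2.01, -0.85, -0.09 and 1.04, and the mean of the probes was not called (-0.47, limma adjusted p = 0.148). Against MHCIIlo cells they gave -3.48, -2.30, -1.56 and 0.29, so 1 probe had the opposite sign. Eif2ak2, the kinase PKR that halts translation, was at -0.62, -0.36 and -0.65 in kidney, 0.80, 0.55 and 0.48 in MHCIIhi and 0.91, 0.29 and -0.32 in MHCIIlo cells. It was lower than in MHCIIhi cells, at -1.15 ± 0.29 (limma adjusted p = 0.00719; -0.95 and not called with median scaling), while against MHCIIlo the difference of -0.84 ± 0.29 passed the p (0.0268) and not the size.

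Of the negative regulators and the transferase, 2 of 3, Socs1 and Parp14, were lower in kidney in both comparisons. Of all genes, 22.8% were lower than in MHCIIhi cells and 27.9% lower than in MHCIIlo cells. Socs1, an inhibitor of Janus kinases, was at -1.18, -1.24 and -1.23 in kidney, 1.41, -0.13 and 1.05 in MHCIIhi and 1.11, 1.96 and 1.98 in MHCIIlo cells. The kidney arrays nearly coincided, and the differences were -1.99 ± 0.39 (limma adjusted p = 0.0019) and -2.90 ± 0.39 (adjusted p = 0.000159). Parp14, an ADP-ribosyl transferase, was at 0.71, 1.65 and 1.34 in kidney, 3.56, 2.71 and 3.77 in MHCIIhi and 4.48, 4.81 and 4.47 in MHCIIlo cells. Groups stood apart without overlap, at -2.11 ± 0.33 (limma adjusted p = 0.000468) and -3.35 ± 0.33 (adjusted p = 2.14e-05). Usp18, which removes Isg15 from proteins and dampens the receptor, was at -1.01, 0.05 and -0.16 in kidney, 0.49, -1.99 and 0.25 in MHCIIhi and -0.17, 1.02 and 1.11 in MHCIIlo cells. All groups overlapped with their neighbours, and neither kidney difference was called (0.04 and -1.03).

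Between the intestinal gates the interferon-stimulated genes differed less. Of 33 genes, 6 were lower in MHCIIhi than in MHCIIlo cells, where 16.1% of all genes were called lower, and 1 was higher, where 14.9% were called higher, 31.0% in all (limma). The 18.2% of the genes that were lower is near the background, and the 3.03% that was higher is below it. Of the 33, 27 had a negative difference, and the median was -0.52, with -0.24 over all genes. The MHCIIhi arrays lay below all MHCIIlo arrays for 7 genes and above them for 1, where 32.7% and 23.7% of all genes did.

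The gene that was higher in MHCIIhi cells was Tgtp1, whose arrays are given above. Its difference was 2.31 ± 0.49 (4.95-fold; limma adjusted p = 0.00674), and all MHCIIhi arrays exceeded all MHCIIlo arrays. It rests on 1 of 2 probes: the other gave -0.60, and the mean of the probes was 0.86. The probes are shown because they disagree, and both lie on the minus strand in the array's annotation, on mm8, the called one at chr11:48830094-48830153 and the other at chr11:48829508-48829567.
Tgtp1 called probe: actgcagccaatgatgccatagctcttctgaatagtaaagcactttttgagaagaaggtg
Tgtp1 other probe: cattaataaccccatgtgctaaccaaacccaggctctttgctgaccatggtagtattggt
For kidney, the other probe gave -0.05 against MHCIIhi and -0.65 against MHCIIlo cells, so the kidney difference of Tgtp1 rests on the called probe too.

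The genes that were lower in MHCIIhi cells were Ddx58 (-1.47 ± 0.34, limma adjusted p = 0.00857), Parp14 (-1.24 ± 0.33, adjusted p = 0.0152), Isg15 (-1.37 ± 0.39, adjusted p = 0.0201), Oasl2 (-1.39 ± 0.40, adjusted p = 0.0209), Stat2 (-1.39 ± 0.46, adjusted p = 0.0341) and Irf7 (-1.38 ± 0.46, adjusted p = 0.0343). They are spread over the roles, with 2 transcription factors, 1 effector, 1 synthetase, 1 sensor and 1 transferase. All but Stat2 had MHCIIhi arrays below all MHCIIlo arrays. Mx1 and Irf1 were also apart without overlap but missed the threshold (-1.43 ± 0.55, limma adjusted p = 0.057, and -0.59 ± 0.25, adjusted p = 0.0712). No guanylate-binding protein was called by limma, and none had an unadjusted p below 0.05 (0 of 4).

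These calls depend on few arrays. Without MHCIIhi 2, the lowest array of its group for most of these genes, 1 gene was lower (Ddx58, -1.12, limma adjusted p = 0.0242) and 2 were higher (Tgtp1, 2.49, and Ifit2, 1.40), and the median was -0.25, with -0.17 over all genes. Of all genes, 8.48% were then lower and 12.7% higher. Without MHCIIlo 2 the counts were 1 higher and 1 lower, with 13.4% and 10.7% of all genes. Without MHCIIlo 3 they were 1 and 3, with 13.6% and 10.6% of all genes. Without MHCIIhi 1 they were 1 and 8, with 13.4% and 11.0% of all genes. Slide 2 alone held both gates, as MHCIIhi 3 and the 3 MHCIIlo arrays. Within it, MHCIIhi 3 minus the MHCIIlo mean was negative for 26 of 33 genes, with a median of -0.40 and of -0.09 over all genes. It was -0.95 for Oasl2, -0.87 for Irf7, -0.81 for Parp14, -0.65 for Stat2 and 1.46 for Tgtp1, with Isg15 and Ddx58 slightly lower than Oasl2. With the slide as a fixed block, limma called none of the 33 genes in either direction, where 6.90% of all genes were higher and 1.52% lower. That fit compares the gates through slide 2 alone, with 1 MHCIIhi array, so no conclusion is drawn from that count. Of the markers tested, 3 of 7 for B and plasma cells, 6 of 8 for T cells and 3 of 6 for macrophages and dendritic cells were also lower in MHCIIhi cells, and 1, Lyz2, was higher. Their part in these calls was not tested.

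Within groups the genes varied more than the median gene, above all in kidney and MHCIIhi cells. Their median SD between arrays was 0.41 in kidney cells, 0.77 in MHCIIhi cells and 0.39 in MHCIIlo cells, against 0.18, 0.32 and 0.34 over all genes. In each group the same arrays were low or high for most of the genes. Kidney 1 was the lowest kidney array for 29 of 33 genes (87.9%, against 39.9% of all genes) and Kidney 2 the highest for 29 (against 30.6%). MHCIIhi 2 was the lowest of its group for 26 (78.8%, against 38.7%) and MHCIIhi 1 the highest for 23 (69.7%, against 20.6%). Among MHCIIlo arrays, MHCIIlo 3 was lowest for 20 genes (60.6%, against 29.7%) and MHCIIlo 2 highest for 18 (54.5%, against 27.1%).

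**Figure D5:**
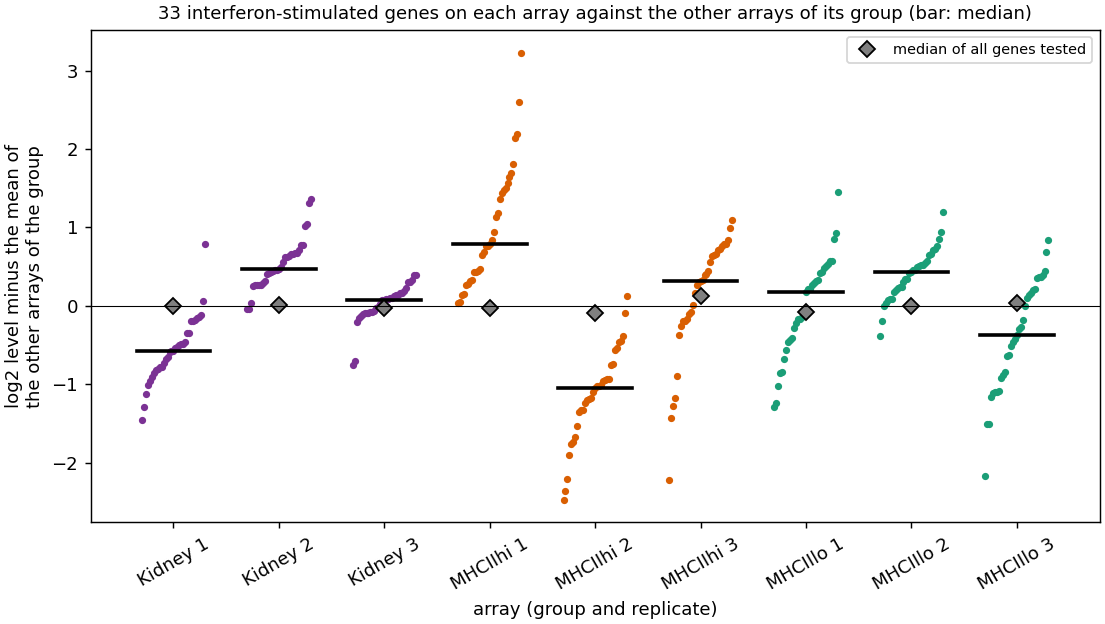
Log2 level of each of 33 interferon-stimulated genes on an array minus the mean of the other arrays of its group, with kidney arrays left, then MHCIIhi and MHCIIlo arrays; each point is a gene, bars are medians and diamonds are medians of all genes tested. The points of MHCIIhi 2 lie mostly below 0 and those of MHCIIhi 1 mostly above it, and Kidney 1 and Kidney 2 show the same on a smaller scale.

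Within MHCIIhi the gap was not the same in all genes. MHCIIhi 1 exceeded MHCIIhi 2 by 2.82 for Gbp4, 2.78 for Oas2, 2.60 for Gbp3, 2.51 for Iigp1, 2.48 for Usp18 and 2.46 for Ifit3, but by 0.39 for Irf1, 0.29 for Ifih1 and 0.25 for Eif2ak2, and the gap was -0.06 for Irf8. For Gbp4, Iigp1, Gbp2 and Gbp3 it was MHCIIhi 1 that stood apart, 3.23, 2.60, 2.19 and 2.14 above the mean of the other arrays. For Oas2, Usp18, Ifit3 and Ifit2 it was MHCIIhi 2, at -2.47, -2.36, -2.21 and -1.90. These are values of single arrays with no test. On MHCIIhi 2 the T cell marker sum was 0.60, with 1.63 and 1.67 on MHCIIhi 1 and 3, and Lyz2 was at 7.18, with 7.42 and 6.60. On Kidney 1 the endothelial sum was 4.31, with 5.50 and 5.14 on Kidney 2 and 3. Whether these move with the interferon-stimulated genes for a common reason was not tested.

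Further genes of the pathway were read from a list of receptors, kinases and STAT proteins, of which 14 of 14 were tested. In kidney cells, 1 was higher and 4 were lower than in MHCIIhi cells (7.14% and 28.6%, against 25.6% and 22.8% of all genes), and 1 was higher and 8 lower than in MHCIIlo cells (7.14% and 57.1%, against 29.8% and 27.9%). Ifnar2, a chain of the type I receptor, was higher by 2.47 and 2.09, at levels of 1.28, 1.68 and 1.36 in kidney, -0.83, -1.21 and -1.05 in MHCIIhi and -0.83, -0.54 and -0.58 in MHCIIlo cells. The chains of the interferon gamma receptor were lower in kidney, Ifngr1 at -2.73 and -3.37 and Ifngr2 at -2.46 and -3.51, and so were Ifnlr1 of the type III receptor (-1.97 and -2.90) and the kinase Jak2 (-2.05 and -3.39). Between the intestinal gates 3 were lower in MHCIIhi cells, Jak2 (-1.34), Stat3 (-1.25) and Ifngr2 (-1.05), and none was higher. The 21.4% called lower is near the 16.1% of all genes, but most of the list was lower by less. All MHCIIhi arrays lay below all MHCIIlo arrays for 11 of 14 genes (78.6%, against 32.7% of all genes). The difference was negative for 13 of 14, with a median of -0.66 and of -0.24 over all genes.

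Of 9 interferon genes, 8 had a probe and 1, Ifna1, was tested and not called in any comparison. Ifnb1, Ifna2, Ifna4, Ifnk, Ifne and Ifnl3 were above background on none of the 9 arrays, and Ifng was so on no kidney array, 1 MHCIIhi array and 2 MHCIIlo arrays. Of 32 other interferon-stimulated genes, 29 were tested. In kidney cells 4 were higher and 9 lower than in MHCIIhi cells (13.8% and 31.0%, against 25.6% and 22.8% of all genes), and 6 were higher and 14 lower than in MHCIIlo cells (20.7% and 48.3%, against 29.8% and 27.9%). The genes that were higher included Gbp5, a further guanylate-binding protein (3.56 against MHCIIhi, where 2 of 3 arrays were above background), and the chemokine Cxcl10 (2.57 and 2.28). Those that were lower included Oasl1 (-4.56 and -6.00) and the chemokine Cxcl9, which was above background on 1 kidney, 3 MHCIIhi and 2 MHCIIlo arrays, so that its fitted -3.44 and -3.12 rest partly on values at background. In MHCIIhi against MHCIIlo cells 2 were higher and 7 lower (6.90% and 24.1%, against 14.9% and 16.1%). Ifitm3 and Ifitm2, membrane proteins that block viral entry, were higher by 4.07 and 2.70. Ifitm3 had levels of 3.25, 3.32 and 2.10 in MHCIIhi cells, against -0.80, -2.43 and -0.32 in MHCIIlo cells, with no overlap.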

How the data were processed

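RNA of 9 pooled samples was read on single-colour Agilent arrays and quantified with Agilent's Feature Extraction software (10.5.1.1). The deposited intensity used here had its background subtracted by that software, per the file headers, and the deposited mean and local background values are unprocessed intensity. The authors' deposited value table holds intensity too. Dividing each scanner value by its array median gave its numbers to within a relative 4.96e-06 (values above 0.1), so that table is linear and uncentred, with a median of 1 in each column. Its making is not described in the sources used here. No spot was saturated, and array number limits the precision. Spots of a probe were averaged, and 24375 of 41174 probes were named through RefSeq accessions, the others by the name in the file. A gene was its brightest probe. The log2 of that intensity, less the 75th percentile of each array, was fitted over all 9 arrays with lmFit and eBayes of limma 3.58.1, under R 4.3.3 (tables were read by data.table, version 1.17.8), for genes whose probe was well above background on every array of some group, with Benjamini-Hochberg adjustment over 19972 genes. The fit was also run on simulated data with independent noise and no slide effect, so that run says nothing about slides or dim probes. Figures used Python 3.11.15, pandas 2.3.3 and matplotlib 3.10.9. Promoters are RefSeq's, on GRCm38.p6; probe positions are the array's, on mm8. Replicates are independent per the labels.

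All 34 interferon-stimulated genes are named; other list genes are named up to 4 a direction by size among those called, except for a result not reported here, and Irgm2, Tgtp1 and Ddx58 are matched through synonyms. The genes and lists were chosen with earlier results of these data known. Alternatives were quantile and median scaling, normexp (offset 50), the authors' table, other filters and thresholds, the mean of a gene's probes, the slide and the replicate number as blocks, and each array left out. Replicate numbers did not pair the samples.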

Additional observations from a re-analysis of the deposited data

How the results depend on the processing

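Kidney arrays share 1 slide, so no kidney difference is free of it. Between kidney and MHCIIhi cells, 17 of the 23 called interferon-stimulated genes were called in every setting that tested them. Between kidney and MHCIIlo cells it was 20 of 25, and between MHCIIhi and MHCIIlo cells 0 of 7. Gbp4, Gbp6, Ifit2, Mx1 and Oas3 were not tested where probes had to be above background on all arrays. The slide as a fixed block was run for MHCIIhi minus MHCIIlo alone. For MHCIIhi minus MHCIIlo, with 1 gene higher and 6 lower, the number lower was 3 with quantile normalization, 2 with the slide as a random block (correlation 0.237), 1 at an adjusted p below 0.01 and 0 with the slide as a fixed block, where 0 were higher. The number higher was 0 with the mean of probes. Of all genes, 6191 were called, against 1681 with the fixed slide block, 2902 with normexp, 4024 with probes above background on all arrays, 4113 at the stricter p and 10008 with no minimum difference. Among alternatives chosen after seeing the data, leaving out MHCIIhi 3 and MHCIIlo 1 gave 9368 genes, and leaving out MHCIIhi 2 and MHCIIlo 2 gave 2658 genes with 0 interferon-stimulated genes either way. Leaving out single arrays gave 4269 to 8329 genes, 1 to 2 interferon-stimulated genes higher and 1 to 8 lower, and medians of -0.90 to -0.25. For kidney minus MHCIIhi the ranges were 9285 to 9754 genes, 5 to 8 higher, 16 to 19 lower and -1.52 to -1.06, and for kidney minus MHCIIlo 11162 to 11728, 6 to 8, 17 to 21 and -1.75 to -1.27. With probes above background on all arrays, 5444 genes were called against MHCIIhi and 7021 against MHCIIlo cells, where no filter gave 17709; fewer or more genes were tested there. Gbp4 reversed to -0.34 against MHCIIlo with normexp. The replicate block, whose numbers did not pair the samples (correlations of same-numbered MHCIIhi and MHCIIlo arrays were 0.19, -0.35 and 0.28, and not every sample correlated best with its own number), gave 6135, 9627 and 11480 genes. It left 1 higher and 5 lower between the gates (Irf7, limma adjusted p = 0.0547), 5 and 17 for kidney minus MHCIIhi (Gbp2, adjusted p = 0.0599) and 7 and 18 for kidney minus MHCIIlo. Of called genes, 52.9% were higher in kidney than in MHCIIhi cells (40.1% with normexp) and 51.6% higher than in MHCIIlo cells (27.5%). Normexp moved the median of all genes to -0.34, -0.59 and -0.49 for kidney minus MHCIIhi, kidney minus MHCIIlo and MHCIIhi minus MHCIIlo. Except where the setting itself tests other genes or samples, the cause was not tested.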

Other observations

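Of the sensing pathway that leads to interferon, 13 of 14 listed genes were tested. In kidney cells 1 gene was higher and 5 were lower than in MHCIIhi cells (7.69% and 38.5%, against 25.6% and 22.8% of all genes), and 6 were lower and none higher than in MHCIIlo cells (46.2% lower, against 27.9%). Called in either direction, 6 of 13 is no larger a share than the 48.4% and 57.6% of all genes. Ikbke, a kinase that activates interferon regulatory factors, had levels of -4.76, -4.52 and -3.90 in kidney, -0.18, -0.36 and 0.29 in MHCIIhi and 0.76, 1.03 and 1.54 in MHCIIlo cells. The groups did not overlap, and the limma differences were -4.31 ± 0.30 (adjusted p = 3.37e-06) and -5.50 ± 0.30 (adjusted p = 6.66e-07). Between the gates, Cgas, the sensor of DNA in the cytosol, and Sting1, its partner, were higher in MHCIIhi cells by 3.35 ± 0.34 (limma adjusted p = 0.000343) and 1.56 ± 0.31 (adjusted p = 0.00504). Cgas was at 0.00, -0.21 and -1.01 in MHCIIhi cells, against -3.31, -3.97 and -3.98 in MHCIIlo cells, where it was above background on 1 of 3 arrays. Ikbke was lower there, at -1.19 ± 0.30 (limma adjusted p = 0.0123). Of the interferon regulatory factors outside the 34 genes, 4 of 5 were tested. Irf2 was lower in kidney, at -1.08 against MHCIIhi and at -1.85 against MHCIIlo cells.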
